A study of Mus musculus with 2 samples.

Results

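Mir137, Mir138-1 and Mir138-2 are 3 of the 2202 microRNA genes counted in mouse hippocampus. They were taken by name, as genes known for roles in dendritic spines and synaptic transmission. MicroRNA-seq was performed on total RNA of tissue labelled layer of hippocampus, from male B6CASTF1/J mice, F1 hybrids between the C57BL/6J and CAST/EiJ strains, aged 36 days, with no treatment in the labels. There is 1 group of 2 libraries, biological replicates 2 and 1. The tissue samples have their own identifiers but carry the same donor label, and nothing in the labels says that they came from separate animals, so the spread between them may be technical in part. There is no other condition, so the data give the level of each gene and the difference of replicate 2 from replicate 1, which describes these libraries only.

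MicroRNAs are short RNAs cut from a hairpin, and they lower the stability or translation of messenger RNAs that pair with their seed (bases 2 to 8 of the mature strand). The guide strand of Mir137, miR-137-3p, is known to limit dendrite growth and to act on presynaptic vesicle release in the mouse hippocampus. The guide strand of both miR-138 genes, miR-138-5p, was found in rat hippocampal neurons to limit the size of dendritic spines by repressing Lypla1, which encodes the depalmitoylating enzyme APT1. A single hairpin gene encodes miR-137, whereas miR-138-5p comes from a pair of genes on different chromosomes.

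The hairpins are printed because the shared and private stretches decide which reads can be assigned to 1 gene. Sequences are from RefSeq (GRCm38.p6, the mm10 build of the files), 5′ to 3′ on the plus strand, with the mature arms in capitals.
Mir137 (chr3:118433857-118433929): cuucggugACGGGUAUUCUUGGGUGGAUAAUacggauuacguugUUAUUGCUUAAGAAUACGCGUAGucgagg
Mir138-1 (chr9:122682876-122682974): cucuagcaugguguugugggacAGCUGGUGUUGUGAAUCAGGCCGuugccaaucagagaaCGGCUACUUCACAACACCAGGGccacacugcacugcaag
Mir138-2 (chr8:94324311-94324381): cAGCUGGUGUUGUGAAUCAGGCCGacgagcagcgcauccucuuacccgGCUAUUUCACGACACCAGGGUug
The hairpins are 73, 99 and 71 bases long. RNAfold gave folding energies of -31.2 kcal/mol for Mir137, -45.5 kcal/mol for Mir138-1 and -29.3 kcal/mol for Mir138-2.

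The mature arms differ in how far they can be told apart. Here the seed is in capitals.
miR-137-5p: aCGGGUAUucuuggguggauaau
miR-137-3p: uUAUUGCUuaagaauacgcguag
miR-138-5p: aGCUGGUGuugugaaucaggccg
miR-138-1-3p: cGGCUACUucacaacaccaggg
miR-138-2-3p: gCUAUUUCacgacaccagggu
No other mature microRNA of the RefSeq table has the seed of miR-137-3p, and the seed of miR-138-5p occurs in the products of Mir138-1 and Mir138-2 alone. The 23 bases of miR-138-5p are identical in both hairpins, with 1 more shared base before them and 0 after them. The Mir138-2 hairpin has only 1 base before miR-138-5p, so sequence farther upstream was not compared. The 3p arms of the miR-138 genes, compared without gaps over 20 positions, differ at 2, and their seeds differ.

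**Figure D1:**
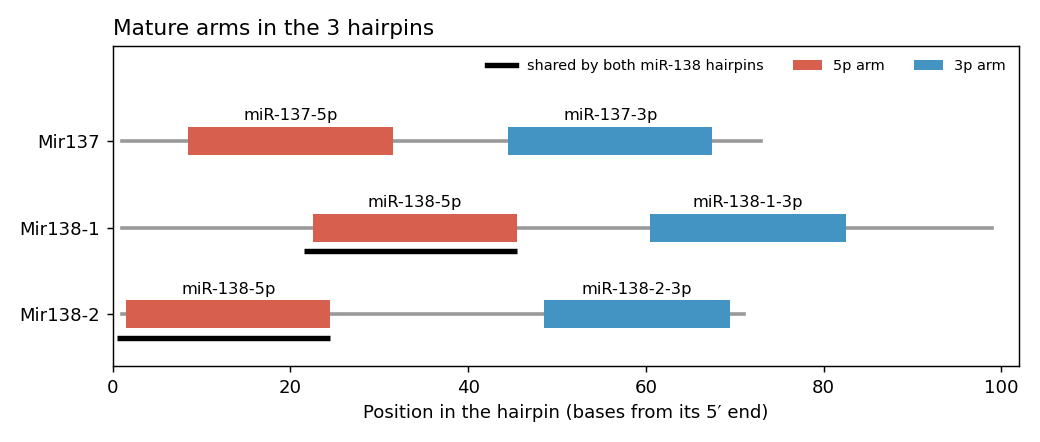
Position of the mature arms (5p red, 3p blue) in the 3 hairpins, in bases from the 5′ end of each. Black bars mark the 24 bases that both miR-138 hairpins share, which hold the whole of miR-138-5p.

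The stretch shared by the miR-138 hairpins was 24 bases, while Mir137 shared at most 11 bases with any other annotated microRNA gene that it does not overlap. At a length of 20 bases, Mir138-1 and Mir138-2 matched each other and no other annotated gene, and Mir137 matched none. A read of miR-138-5p that ends within the shared stretch fits both genes, and the tables hold reads that match several places on a line of their own, outside the genes. The counts of Mir138-1 and Mir138-2 are therefore uncertain as levels, and their sum need not be the amount of miR-138-5p. The counts are per gene, so 5p and 3p reads could not be separated for any of the 3 genes.

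All 3 genes lie in an exon of a longer transcript on their own strand. Mir137 (ENSMUSG00000065569.2) lies in Gm26871, a non-coding transcript, and exons of 2 of its 6 annotated transcripts hold the whole hairpin. Mir138-1 (ENSMUSG00000065414.1) lies in an exon of Gm47135, annotated as a transcribed pseudogene. Mir138-2 (ENSMUSG00000065512.3) lies in an exon of the long intergenic non-coding RNA C78859. No annotated gene overlaps any of them on the opposite strand, and the opposite-strand counts of all 3 were 0 in both libraries.

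Known targets were searched for the letters complementary to the seeds. The 3′ UTR of Syt1, which encodes the calcium sensor synaptotagmin-1, and that of Cplx1, which encodes complexin-1, were searched for AGCAATA, the match to the seed of miR-137-3p. The 3′ UTR of Lypla1 was searched for CACCAGC, the match to the seed of miR-138-5p. The strand of the messenger was searched, in the longest GENCODE M21 3′ UTR of each gene. Syt1, Cplx1 and Lypla1 each held 1 match, in capitals in the 30 bases shown.
Syt1, bases 216 to 222 of the UTR: tctactcttcttttaAGCAATAtgatgtgt
Cplx1, bases 625 to 631: ggccagaggaaacacAGCAATAgatttgga
Lypla1, bases 29 to 35: ccttgagtagaagttCACCAGCatcacagt
Nsf, which encodes a fusion ATPase of vesicle cycling, and Ezh2, which encodes a histone methyltransferase, were also searched as known targets of miR-137-3p. They had 0 matches to AGCAATA in their longest 3′ UTR. Only matches to the whole seed were searched, in 1 UTR per gene, so other kinds of site and other UTRs were not covered. Among 3′ UTRs within 20% of the same length, AGCAATA occurred in 20.1% of 2344 for Syt1 and in 10.4% of 2881 for Cplx1, and CACCAGC in 14.9% of 2885 for Lypla1. The shares for AGCAATA were 9.42% of 2857 for Nsf and 2.39% of 1798 for Ezh2. These are matches of letters, and no target was measured here.

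The libraries were deep enough that counting error is small for all 3 genes. Replicate 2 held 5279877 own-strand counts over all microRNA genes and replicate 1 held 4404040. Levels are in CPM, the counts of a gene per 1000000 of these. Reads that matched several places were 46.5% of all reads in replicate 2 and 40.3% in replicate 1. Of the 2202 genes, 411 had 10 or more counts in both libraries. The neuronal markers Mir132, Mir128-1 and Mir128-2 were present, while the genes of miR-124, the defining microRNA of neurons, held at most 11 counts each, and Mir124a-3 had 0 in both libraries. Of the muscle markers, Mir206 had 107 CPM in replicate 2 and 98.1 CPM in replicate 1, and Mir1a-1 and Mir133a-1 had 0 counts in both. As miR-124, miR-1a and miR-133a are each known to come from several genes with the same mature strand, their reads can lie on the line of multiple matches, and these low counts do not show that the microRNAs were scarce. Intervals cover counting error of reads only, and leave out variation between the libraries. Reads were not counted by molecular identifier, so the intervals do not apply to molecules.

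Mir137 had the most counts of the 3. It had 50865 counts in replicate 2 and 25389 in replicate 1, or 9634 and 5765 CPM. It took 0.963% of the counts of replicate 2, with a 95% Wilson interval of 0.955 to 0.972%. In replicate 1 it took 0.576% (0.569 to 0.584%). Its mean of 7699 ± 2736 CPM (SD, n = 2) ranked 31st of all genes, with rank 25 in replicate 2 and rank 33 in replicate 1. Replicate 2 stood well above replicate 1, and the SD was 35.5% of the mean.

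Mir138-1 had 27003 counts in replicate 2 and 16368 in replicate 1, or 5114 and 3717 CPM. Its mean of 4415 ± 988 CPM (SD, n = 2) ranked 45th, with rank 44 in replicate 2 and rank 48 in replicate 1. Its share of counts was 0.511% in replicate 2 (0.505 to 0.518%) and 0.372% in replicate 1 (0.366 to 0.377%).

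Mir138-2 had 13792 counts in replicate 2 and 8517 in replicate 1, or 2612 and 1934 CPM. Its mean of 2273 ± 479.6 CPM (SD, n = 2) ranked 62nd, with rank 58 in replicate 2 and rank 68 in replicate 1. Its share was 0.261% in replicate 2 (0.257 to 0.266%) and 0.193% in replicate 1 (0.189 to 0.198%). Both miR-138 genes were higher in replicate 2, by a like factor, and their SDs were 22.4% and 21.1% of the mean.

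**Figure D2:**
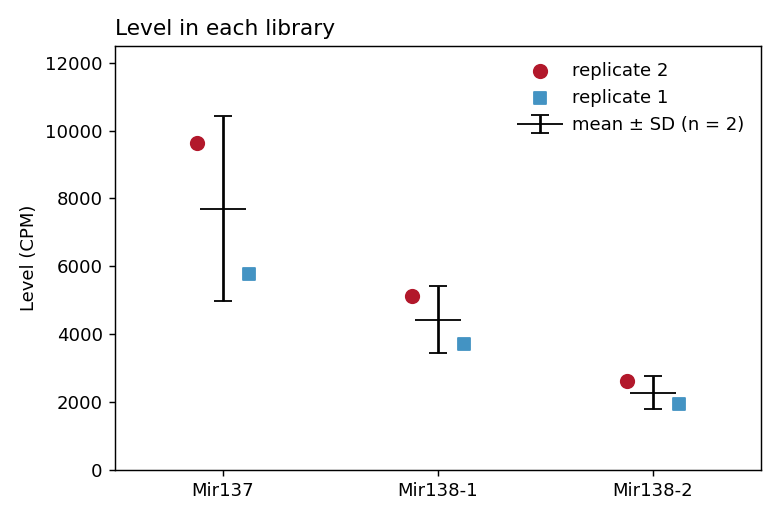
Level of each gene in CPM in replicate 2 (red circles) and replicate 1 (blue squares), with mean ± SD of the 2 libraries in black. Mir137 is highest and Mir138-2 lowest in both libraries, and replicate 2 lies above replicate 1 for each gene.

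The order was Mir137, Mir138-1, Mir138-2 in both libraries. The lowest library of Mir137 (5765 CPM) lay above the highest of Mir138-1 (5114 CPM), but their ranges of mean ± SD overlap. Those of Mir138-1 and Mir138-2 do not. An exact two-sided test by sign flips could reach no p below 0.5 with 2 libraries, so the order was not tested. Reads of a small RNA library span a whole mature strand, so counts were not scaled by length. Per base of hairpin the order was the same, at 105 ± 37.5 CPM for Mir137, 44.6 ± 9.98 CPM for Mir138-1 and 32.0 ± 6.76 CPM for Mir138-2 (SD, n = 2). Together the 3 genes took 1.74% of the counts in replicate 2 and 1.14% in replicate 1.

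**Figure D3:**
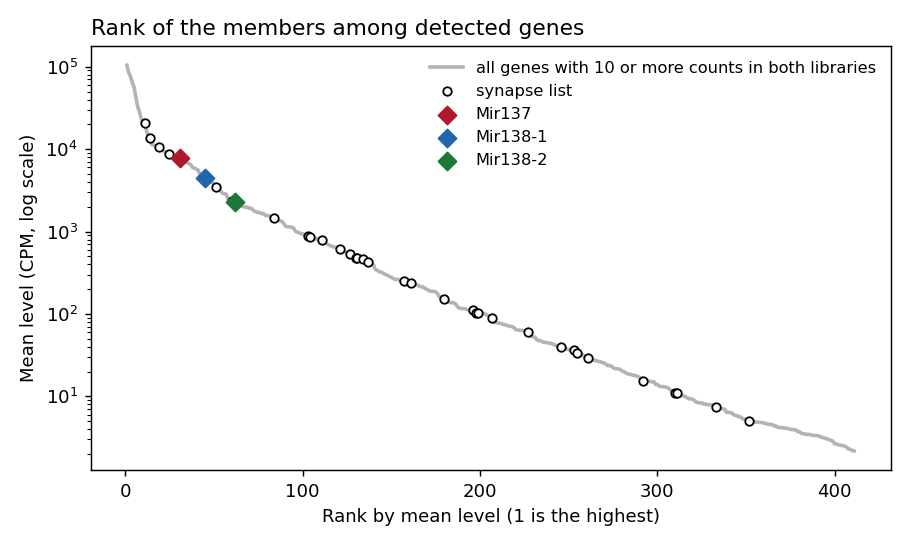
Mean level (CPM, log scale) against rank for the 411 genes with 10 or more counts in both libraries (grey line), with the synapse list (open circles) and the 3 genes (diamonds). Mir137, Mir138-1 and Mir138-2 lie at ranks 31, 45 and 62, on the steep upper part of the curve.

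Mir138-1 exceeded Mir138-2 by nearly the same factor in each library. The ratio of their counts was 1.96 in replicate 2 (95% exact binomial interval 1.92 to 2.00) and 1.92 in replicate 1 (1.87 to 1.97), a mean of 1.94 ± 0.0255 (SD, n = 2). These intervals overlap. The ratio of Mir137 to both miR-138 genes together was 1.25 in replicate 2 (1.23 to 1.26) and 1.02 in replicate 1 (1.00 to 1.04), and these intervals do not overlap. Capture may differ between sequences, so ratios between genes are ratios of counts and not of molecules. Reads that fit both miR-138 genes can lie on the line of multiple matches, outside these counts. Mir137 has no such partner among the annotated genes, so its ratio to the miR-138 genes need not be that of the microRNAs. The intervals do not cover this, and the part of such reads in either ratio was not tested.

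Other genes also share a mature sequence, which allows the miR-138 genes to be set beside them. Of the 1005 RefSeq hairpins, 972 matched 1 gene of the files, and 89 of these genes share an identical mature sequence with another. Their median level was 1.99 CPM, and some of them had 0 counts in both libraries. The median was 0 CPM over all 2202 genes and 94.2 CPM over the 411 with 10 or more counts in both. Mir138-1 ranked 2nd and Mir138-2 5th among the 89. Of the 57 pairs they form, the miR-138 pair had the highest level of the lower member. In the pair next to it, Mir128-1 and Mir128-2 stood at 8694 and 1471 CPM on average, a ratio of 5.91.

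As the ratio of the 2 miR-138 genes was nearly constant, both genes differed between the libraries by almost the same amount. This restates that ratio and is not a further result. The log2 ratio of replicate 2 over replicate 1, after TMM scaling, was 0.44 for Mir138-1 and 0.42 for Mir138-2, a difference of 0.027. In the other 9 pairs with 100 or more counts of both genes in both libraries, the difference ranged from 0.050 to 0.96, with a median of 0.28. Mir16-1 and Mir16-2 came next, at 1.89 and 1.94. Mir29b-2 and Mir29b-1 were farthest apart, at 0.72 and -0.24. Pairs with fewer counts in 1 library could lie much farther apart, as Mir26a-1 and Mir26a-2 (-4.36 and -0.55) or Mir181a-1 and Mir181a-2 (0.68 and 3.52). These pairs were chosen after their values were seen, some share a gene, and the comparison is a description without a test.

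**Figure D4:**
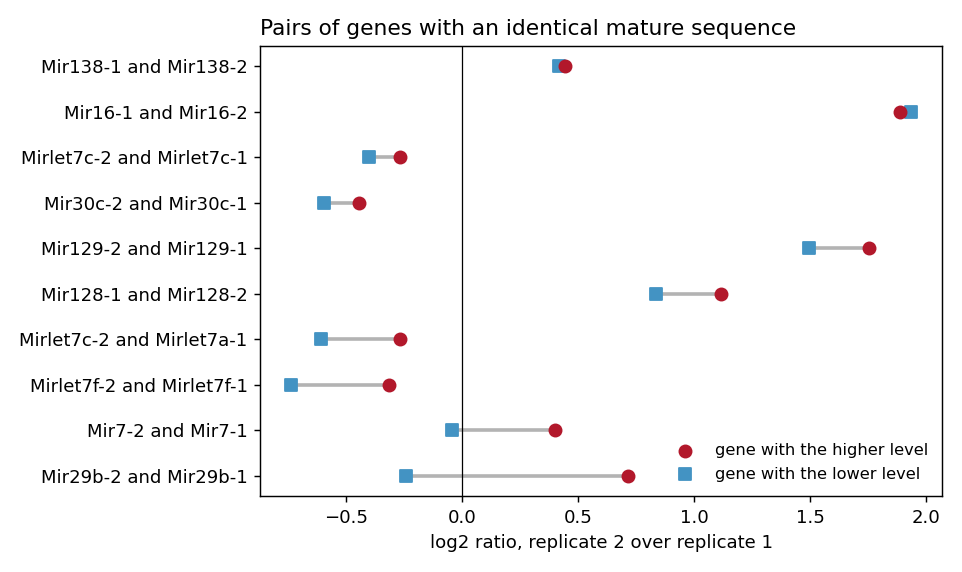
Log2 ratio of replicate 2 over replicate 1 for the 10 pairs of genes that share an identical mature sequence and have 100 or more counts in both libraries. The gene with the higher level (red circle) and that with the lower level (blue square) are joined by a line, which is shortest for Mir138-1 and Mir138-2.

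Replicate 2 was higher than replicate 1 for all 3 genes. By an exact binomial test of the 2 counts of a gene, adjusted by Benjamini-Hochberg over the 504 genes with 10 or more counts in total, 3 of 3 passed an adjusted p of 0.05. This has to be read against the background, where 55.8% of all tested genes passed, 32.5% as higher and 23.2% as lower in replicate 2. These are 164 higher and 117 lower genes, and with only genes of 100 or more counts scaled and tested the balance was 122 higher and 130 lower. Among the 85 genes of 1000 CPM or more in both libraries, 96.5% passed, 43.5% as higher and 52.9% as lower. The test covers counting error, which is small at these depths, so passing it says little about the genes themselves.

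The log2 ratio of Mir137 was 0.72 (95% exact interval 0.70 to 0.75), a 1.65-fold difference, with an adjusted p of 10 to the power -969.7. Mir138-1 had a log2 ratio of 0.44 (0.42 to 0.47), 1.36-fold, with an adjusted p of 6.76e-215. Mir138-2 had a log2 ratio of 0.42 (0.38 to 0.46), 1.33-fold, with an adjusted p of 1.63e-98. The interval of Mir137 does not overlap those of the miR-138 genes, which overlap each other. Larger ratios in either direction were found for 29.6% of the tested genes in the case of Mir137, 50.4% for Mir138-1 and 53.4% for Mir138-2.

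The spread between the libraries is wider than the counting error. edgeR estimated a coefficient of variation of 42.6% between them over all tested genes, above the SDs of the 3 genes relative to their means. When the test allowed for variation between libraries (a coefficient of 0.1), Mir137 passed (adjusted p = 0.0028) and the miR-138 genes did not (0.0938 for Mir138-1 and 0.118 for Mir138-2). With 0.3, none of the 3 passed (0.896 for Mir137 and 0.949 for both miR-138 genes).

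**Figure D5:**
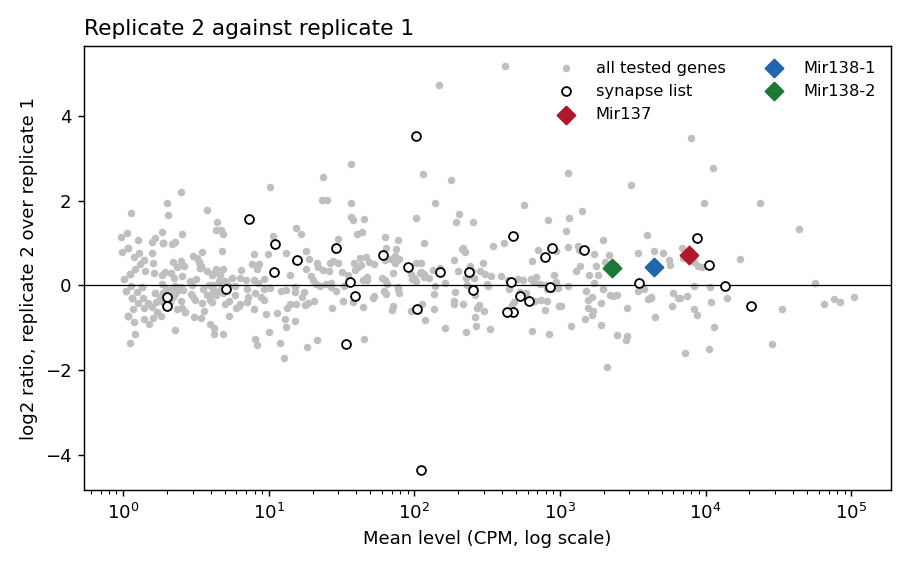
Log2 ratio of replicate 2 over replicate 1 against mean level (CPM, log scale) for the 504 tested genes (grey), the tested genes of the synapse list (open circles) and the 3 genes (diamonds). The 3 genes lie above 0 between 0.42 and 0.72, within the cloud of genes of like level.

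Markers of other cell types also differed between the libraries. The vessel wall markers Mir126a, Mir143 and Mir145a summed to 43835 CPM in replicate 2 and to 16250 CPM in replicate 1. The difference in this sum came from Mir126a (37937 CPM in replicate 2 and 9729 CPM in replicate 1). Mir143 was lower in replicate 2 (5658 and 6311 CPM), and Mir145a was slightly higher (240.5 and 209.4 CPM). The choroid plexus markers summed to 1337 CPM in replicate 2 and 713 CPM in replicate 1. The red blood cell markers summed to 95.6 and 43.8 CPM in the same order, and the leukocyte and microglia markers to 95.6 and 57.2 CPM. Of these 12 markers, 10 were higher in replicate 2, 1 was lower and 1 did not pass. Over all tested genes, 32.5% were higher and 23.2% were lower. The tested muscle marker Mir206 and the liver marker Mir122 did not pass. The oligodendrocyte markers summed to 5662 CPM in replicate 2 and 5819 CPM in replicate 1, and the neuronal markers to 31096 and 30326 CPM, of which Mir128-1 and Mir128-2 were higher and Mir132 lower. The part of these differences in the ratios of the 3 genes was not tested, and in bulk tissue fewer cells of a type and less RNA per cell cannot be told apart.

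The genes nearest in level were found by the distance of log2(CPM + 1) over the 2 libraries. For Mir137 they were Mir26b (10101 CPM in replicate 2 and 6281 in replicate 1), Mir100 (8602 and 5427 CPM) and Mir30d (10034 and 6747 CPM). For Mir138-1 they were Mir369 (5695 and 3198 CPM), Mir30a (6383 and 3742 CPM) and Mir187 (3673 and 3873 CPM), the last of which was lower in replicate 2. For Mir138-2 they were Mir485 (2711 and 1990 CPM), Mir874 (2725 and 1649 CPM) and Mir181c (2421 and 1627 CPM). Mir485 had a log2 ratio of 0.43 and was the closest of the 9, at a distance of 0.068. Over 2 libraries this measures likeness of level, not of a pattern across conditions.

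Other microRNA genes with a role at synapses mostly had fewer counts. Of 37 listed genes, 33 reached 10 counts in each library. The median of the mean levels of all 37 was 149.8 CPM, against 94.2 CPM over the 411 genes with 10 or more counts in both. At least 20 of the 37 share a mature sequence with another gene in RefSeq, so reads of theirs can lie outside the gene counts. Their median was 96.7 CPM, against 472.5 CPM for the 13 that RefSeq lists with no such partner. These groups hold different microRNAs, and the part of read sharing in this difference was not tested. The order of the genes need not be that of the microRNAs. By mean CPM, 4 of the 37 stood above Mir137 and above Mir138-1, and 6 above Mir138-2. In replicate 1 alone, 3 stood above Mir137, as Mir128-1 lay below it there. The highest was Mir132, an activity-dependent microRNA known to promote spine growth, with 17251 CPM in replicate 2 and 23835 CPM in replicate 1. It was followed by Mir191 (13654 and 13605 CPM), Mir29a (12370 and 8686 CPM) and Mir128-1 (11949 and 5440 CPM). Mir219a-2 (3589 and 3433 CPM), which is also typical of oligodendrocytes, came next and lay between Mir138-1 and Mir138-2.

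The listed genes did not move together between the libraries. Of 35 tested, 17 were higher in replicate 2, 8 were lower and 10 did not pass, against 32.5% higher and 23.2% lower over all tested genes. Their median log2 ratio was 0.085, and that of all tested genes was 0.054. The ratios ranged from -4.36 for Mir26a-1 to 3.52 for Mir181a-2, both of which share a mature sequence with another gene. Mir128-1 stood at 1.12, Mir29a at 0.49, Mir219a-2 at 0.047 and Mir132 at -0.48, while Mir191 (-0.012, adjusted p = 0.199 in the exact binomial test) did not pass.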

How the data were processed

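Each library has 1 deposited table of raw counts per microRNA gene. The build was mm10 and the annotation GENCODE M21, per the notes deposited by the authors with the counts. The alignment and counting tools were not given in the sources used here. Since the tables have no column names, either-strand, own-strand and opposite-strand counts were told apart from the values, and own-strand counts were used. Lines that name no gene (65.4% of reads in replicate 2 and 64.7% in replicate 1) were left out.

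CPM was scaled by own-strand totals, and TMM factors (edgeR 4.0.16, R 4.3.3) scaled the comparison of the libraries. It used a two-sided exact conditional binomial test (scipy 1.17.1, Python 3.11.15) over genes with 10 or more counts. For log2 ratios, 1 CPM was added. The test was checked on counts simulated with the variation that it assumes. Such a check cannot show that the test suits the spread between these libraries. With 1 group there is no contrast for edgeR's quasi-likelihood test. p-values cover counting error. Alternatives were other scalings (DESeq2 1.42.0), count minimums, strands, pseudocounts and added variation (beta-binomial). Hairpins were folded with RNAfold 2.7.2. Named genes are the 3 members, the 3 nearest in level to each, and the 5 highest of the synapse list (37 genes, of which Mir92a-1 and Mir92a-2 were matched by a RefSeq synonym). Others named are markers, matched pairs or extremes chosen after their values were seen. Members and lists were chosen with earlier results of these data known. CAST/EiJ variants can affect mapping, which was not tested.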

Additional observations from a re-analysis of the deposited data

How the results depend on the processing

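The 3 genes were higher in replicate 2 under all 8 alternatives to the test. Added variation alters only the p-values and leaves the log2 ratios as in the main test, so the direction could not change there. With added variation the miR-138 genes missed the threshold at a coefficient of variation of 0.1 (log2 ratios 0.44 and 0.42, adjusted p = 0.0938 and 0.118), and Mir137 (0.72), Mir138-1 (0.44) and Mir138-2 (0.42) missed it at 0.3. Over the alternatives the adjusted p from the exact and beta-binomial tests ranged from 5.46e-272 to 0.949 for Mir138-1 and from 2.6e-126 to 0.949 for Mir138-2, and it reached 0.896 for Mir137. The genes called fell to 152 at 0.1 (98 higher and 54 lower in replicate 2) and to 14 at 0.3 (13 higher and 1 lower), against 281 in the main test. Scaling and testing with genes of 100 or more counts moved the median log2 ratio of all shared genes by -0.13, and the ratios were then 0.59 for Mir137, 0.31 for Mir138-1 and 0.28 for Mir138-2. Per 1000000 reads of all kinds, unassigned reads included, the levels were 2687 for Mir137, 1543 for Mir138-1 and 794 for Mir138-2. The either-strand counts of the 3 genes equal their own-strand counts, so ratios between them did not change. No paired analysis was possible because there is 1 group.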

Other observations

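Mir137 has a close neighbour among the annotated microRNA genes. Gm24155 (ENSMUSG00000093000.1) begins 791 bases after the end of the Mir137 hairpin, on the same strand of chromosome 3, and had 1 count in replicate 2 and 1 count in replicate 1, beside 50865 and 25389 counts of Mir137. The nearest microRNA gene to Mir138-1, Mir8106, lies 408847 bases away, and the nearest to Mir138-2, Mir7072, lies 180664 bases away. Both had 0 counts in both libraries, which allows up to 0.568 CPM in replicate 2 and 0.681 CPM in replicate 1 at 3 counts.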
